A study of Homo sapiens with 6 samples.

Results

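DNA replication and nucleotide synthesis genes were followed in the human breast cancer line MDA-MB-231 and in its isolates S1a and S1b. The set was given as a list of 50 gene symbols, and every probe set annotated to one of them was taken. The array table named probe sets for 49 of the 50, among 11963 genes in all, with 77 probe sets between them. No probe set was annotated to UHRF1, a maintenance methylation factor, which was not analysed here. Each of the 49 had a probe set with a mean signal of at least 44 units, the minimum used, and so all 49 were among the 7791 genes tested.

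Total RNA of 3 populations was measured on 6 Affymetrix arrays, 2 for each. MDA-MB-231 is a triple-negative line with mesenchymal traits, and the parental group is the line itself. S1a and S1b are cell populations isolated separately and labelled as seeder cells, meaning tumour cells that can leave a tumour and return to it. All groups were grown below confluence in serum-containing medium, and no treatment or genetic change is named for any of them. Each isolate is 1 isolated population measured on 2 arrays called biological replicates, without a statement that these were separate cultures. The p-values therefore measure the spread between these arrays, which may be technical.

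The arrays had equal trimmed mean signals of 500.2 units and medians of 87.6 to 106. All 6 markers of the line that should be present (VIM, CD44, AXL, EGFR, FN1 and MSN) were above the minimum. Among markers expected to be low, CDH1 and PGR lay below 44 units in every group, whereas ERBB2 and EPCAM were measured at 160 to 450 units. ESR1, also expected to be low, had a mean over all arrays above the minimum (54.8 units in parental cells, 24.8 in S1a and 52.8 in S1b). Of the other cell type markers, 0 of 3 endothelial, 1 of 3 leukocyte and 3 of 4 fibroblast genes had a mean over all arrays above the minimum. Some of the rest lay above 44 units in a single group, PECAM1 in S1a (47.2) and PDGFRB in parental cells (52.5). CDH5 read 5.36 units in parental cells, 50.5 in S1a and 31.2 in S1b. The leukocyte gene was CD14 (86.9 units in parental cells, 56.9 in S1a and 26.2 in S1b), while PTPRC and CD3E lay below. The fibroblast genes were COL1A1 (134, 117 and 96 units), COL1A2 (102, 38.1 and 38.5) and ACTA2 (53.2, 187 and 121), which mesenchymal tumour lines can also express. The part of such cells in the results was not tested. The summed signal of 7 mitosis markers lay between 24084 and 26233 units in parental cells, 25722 and 26460 in S1a, and 30065 and 30355 in S1b. In bulk RNA, more cells in a phase of the cycle and more RNA per cell cannot be told apart.

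A chromosome is copied once per cell cycle because loading and firing of the replicative helicase are kept apart. In G1, the origin recognition complex (ORC) with CDC6 and CDT1 loads the MCM helicase onto DNA, and geminin blocks further loading afterwards. At the start of S phase, cyclin E and DBF4-dependent kinases fire these origins, CDC45 joins the helicase, and polymerases alpha, delta and epsilon copy the strands from deoxynucleotides made largely by ribonucleotide reductase and thymidylate synthase. Transcription factors of the E2F family drive many of these genes in proliferating cells, and tumour lines in culture express most of them.

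More of these genes rose than fell in the mean of both isolates, and nearly all changes were under 2-fold. In S1b alone, fitted changes above and below 0 were nearly equal in number. Averaged over both isolates and set against the parental line, 28 of 49 members passed (limma adjusted p under 0.05), beside 46.2% of all genes tested. Of these members 21 rose and 7 fell, whereas 22.7% of all genes rose and 23.5% fell. The share of members that rose was 42.9%, and the share that fell was 14.3%. All isolate arrays lay above both parental arrays for 21 members and below them for 11, beside 27% and 29.7% of all genes. The median log2 change was 0.09 over the members and -0.03 over all genes tested, and the middle of the members' changes (quartiles) ran from -0.21 to 0.30, beside -0.38 to 0.31 for all genes. CDT1 and POLA1 were the only members of the 49 with a change of at least 2-fold (4.08%, beside 9.73% of all genes). Median centring of the arrays moved the median of all genes from -0.03 to 0.15 and that of the members from 0.09 to 0.27. With it, 85.7% of the members called were higher in place of 75%, and 69.8% in place of 49.2% of all genes called. Without S1b replicate 1, 13 members rose and 8 fell (26.5% and 16.3%, beside 19.1% and 20.7% of all genes). Without the variance trend in limma, 11 rose, a share of 22.4% that is close to the 18.4% of all genes. The calls lost there were GMNN, POLD1, RFC3, RPA1, RPA2, FEN1, LIG1, TYMS, DUT and MSH6 among those that rose and ORC4 and RRM2 among those that fell.

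Against the parental line, 22 members passed in S1a (39.2% of all genes did), 18 higher and 4 lower, beside 19.4% and 19.9% of all genes. In S1b 21 passed (41.6% of all genes did), 13 higher and 8 lower, beside 20.7% and 20.9%. The median log2 change of the members was 0.16 in S1a and -0.02 in S1b, beside -0.03 and -0.02 over all genes. The fitted change was above 0 for 30 members and below 0 for 19 in S1a. In S1b it was above 0 for 24 and below 0 for 25, and in the mean of both isolates for 28 and 21. These comparisons share the parental arrays. In S1b the share of members that were higher, 26.5%, was little above that of all genes. With the minimum raised to 195 units, it was 30.6%, beside 27% of all genes. Without S1a replicate 2, 10 members were higher and 2 lower in S1a (20.4% and 4.08%, beside 11.5% and 12.8% of all genes). In S1b, 7 were higher and 5 lower without S1b replicate 1 (14.3% and 10.2%, beside 13.4% and 15.1%), and 8 were higher without S1b replicate 2 (16.3%, beside 14%), so that the share higher was near the background in both.

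**Figure D1:**
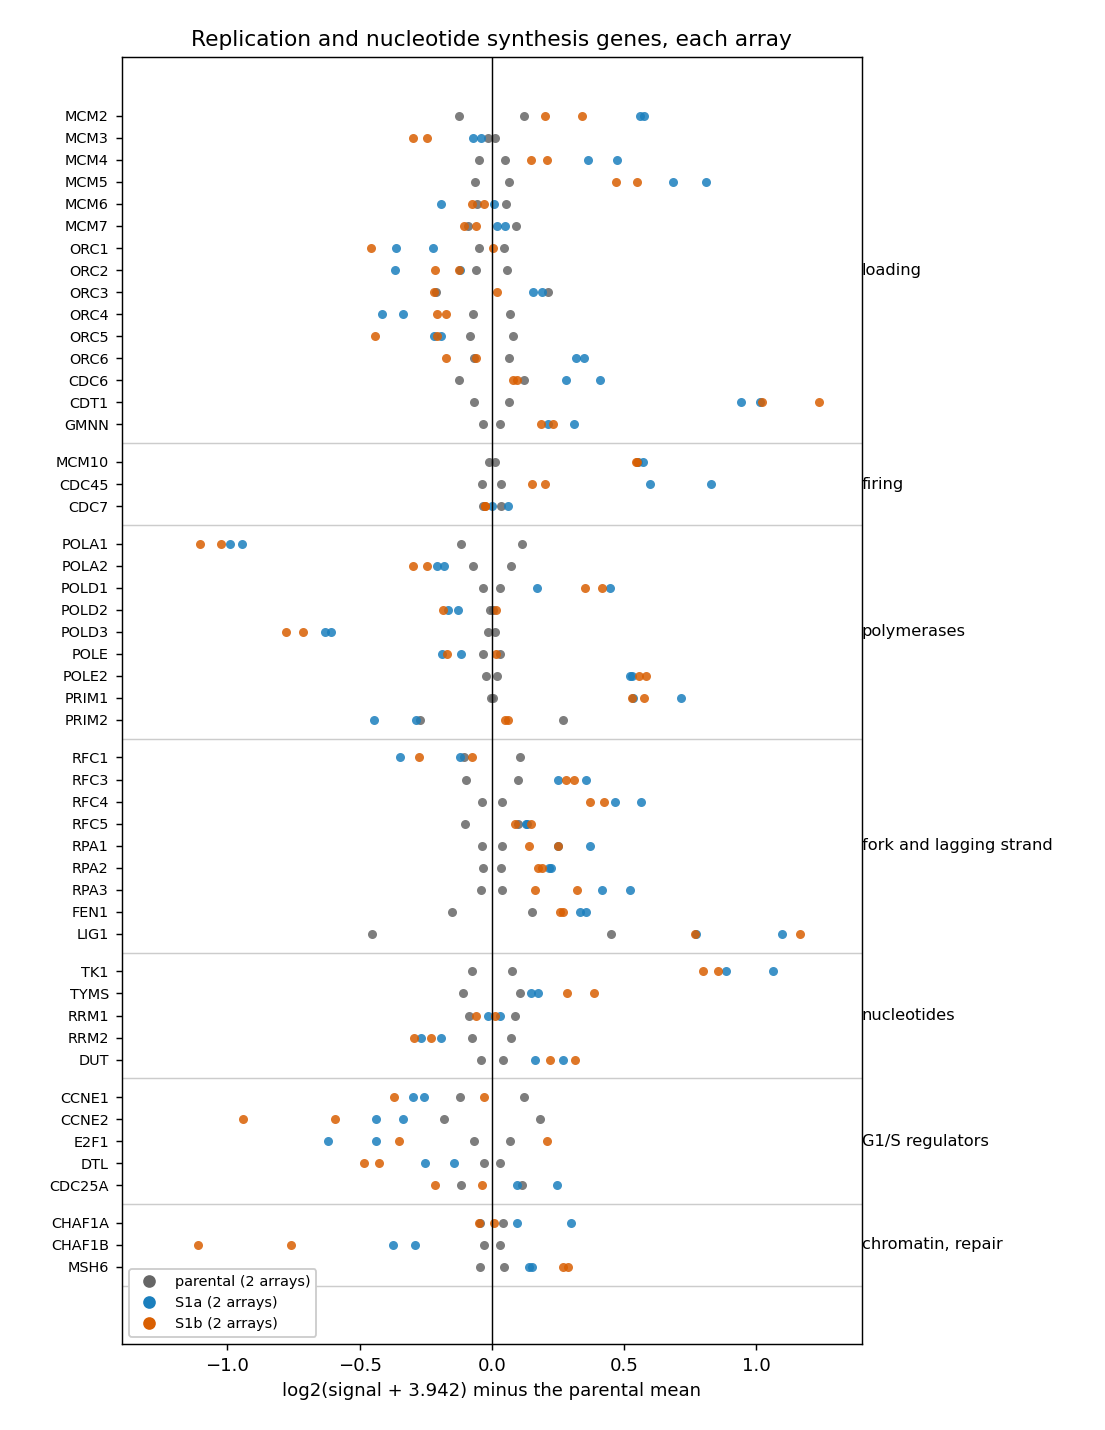
Each row is a member and each point 1 array, placed by its log2(signal + 3.942) minus the mean of the 2 parental arrays (horizontal axis, log2 units); rows are grouped by role. Points of both isolates lie to the right of the parental points for CDT1, TK1 and LIG1 and to the left for POLA1, POLD3 and CHAF1B, while MCM6, MCM7, CDC7 and RRM1 lie on both sides of 0.

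Promoter letters were examined because many of these genes are known E2F targets. RefSeq promoter windows (GRCh38.p14), the 250 bases before each annotated start, were at hand for 44 of the 50 members, 12 of them with several starts. They were searched on both strands for 4 E2F type words (TTTGGCGC, TTTCCCGC, TTTGGCGG and TTTCCCGG). Of the 44 members, 22 (50%) held at least 1 such word, beside 8% of the 6504 genes tested that had a window and 4.48% of all 27305 genes in the promoter table. The words were found in 8 of 17 members that rose, 2 of 5 that fell, 11 of 21 that did not pass, and UHRF1. Windows were missing for MCM4, MCM5, RPA2 and RPA3, which rose, and for POLD3 and CCNE2, which fell. The split by call therefore leaves out only members that passed. The CCAAT box was in 27 of the 44 (61.4%, against 43.4% of genes tested and 37% of all) and the E box CACGTG in 6 (13.6%, against 11.9% and 7.73%). By call, the CCAAT box was in 7 of 17 members that rose (41.2%), 3 of 5 that fell, 16 of 21 that did not pass (76.2%), and UHRF1. A match is a run of letters and no more.

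The stretches below show where the words lie in members that rose (CDT1, LIG1), fell (POLA1, DTL) and did not pass (MCM6, E2F1). Each is 80 bases, 5′ to 3′ on the strand of the gene, with the E2F type words in capitals.
CDT1, chr16:88803709-88803788, plus strand: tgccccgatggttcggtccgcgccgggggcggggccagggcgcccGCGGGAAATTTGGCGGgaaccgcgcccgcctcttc
LIG1, chr19:48170415-48170494, minus strand: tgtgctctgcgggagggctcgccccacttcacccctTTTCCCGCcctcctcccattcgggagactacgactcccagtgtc
POLA1, chrX:24693745-24693824, plus strand: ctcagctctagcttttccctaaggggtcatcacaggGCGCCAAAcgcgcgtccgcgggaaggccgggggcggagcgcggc
DTL, chr1:212035668-212035747, plus strand: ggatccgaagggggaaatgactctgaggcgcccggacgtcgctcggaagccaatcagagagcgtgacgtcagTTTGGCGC
MCM6, chr2:135876521-135876600, minus strand: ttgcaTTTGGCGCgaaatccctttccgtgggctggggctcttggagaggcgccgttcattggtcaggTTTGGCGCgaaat
E2F1, chr20:33686386-33686465, minus strand: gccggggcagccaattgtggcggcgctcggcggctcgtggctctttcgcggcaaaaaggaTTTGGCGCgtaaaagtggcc
In CDT1, 2 words stand side by side within 35 bases of the start, one on each strand. MCM6 carries the same word at 2 places, and its signal overlapped between the groups, as given below.

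Of the 15 helicase loading genes, 5 rose and 1 fell in the mean of both isolates, beside 22.7% and 23.5% of all genes. CDT1, the factor that brings the MCM helicase to origins (chromosome 16, 88803789 to 88809258, GRCh38.p14), had the largest rise of any member. Its signal was 174 and 191 units in parental cells, 354 and 372 in S1a, and 435 and 374 in S1b. Every isolate array thus stood clear of both parental arrays, and the 2.08-fold rise passed (log2 1.06 ± 0.13, SE, adjusted p = 0.000118). Geminin (GMNN), the inhibitor of CDT1, read 4542 and 4338 units in parental cells, 5507 and 5146 in S1a and 5212 and 5053 in S1b. Its groups did not overlap either, but the rise was small (0.24 ± 0.071, adjusted p = 0.0211). CDC6, the partner of CDT1 in loading, had 1235 and 1040 parental, 1505 and 1379 S1a and 1199 and 1211 S1b units. Only the S1a arrays lay above both parental arrays, and CDC6 passed in S1a (0.35 ± 0.1, adjusted p = 0.0254) but not in the mean of both isolates (0.22 ± 0.091, adjusted p = 0.0746).

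Within the MCM2-7 ring, 3 subunits rose (22.7% of all genes did) and the other subunits did not pass. MCM5 had signals of 903 and 987 units in parental cells, 1520 and 1657 in S1a and 1385 and 1309 in S1b (0.63 ± 0.082, adjusted p = 0.000194). MCM2 had 1730 and 2051 parental, 2780 and 2810 S1a and 2386 and 2165 S1b units (0.42 ± 0.087, adjusted p = 0.00313). MCM4 read 949 and 1017, 1265 and 1367, and 1137 and 1089 units in the same order (0.30 ± 0.081, adjusted p = 0.0124). In all 3, both S1a arrays lay above both S1b arrays, and the S1b arrays above the parental arrays. MCM6 (-0.07 ± 0.08), MCM7 (-0.02 ± 0.076) and MCM3 (-0.16 ± 0.068, adjusted p = 0.0724) did not pass, although MCM3 was lower in S1b (-0.27 ± 0.078, adjusted p = 0.0188). That MCM3 call ended without S1b replicate 1 (-0.30, 0.0537) or replicate 2 (-0.25, 0.0927), without the variance trend, and with median centring (-0.09, 0.47). The ring's subunits act in equal numbers, and their fitted log2 changes spanned -0.16 to 0.63.

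None of the ORC subunits, which mark origins, rose in the mean of both isolates (0 of 6, beside 22.7% of all genes). With median centring ORC6 passed (0.29, limma adjusted p = 0.0204). ORC4 fell from 1400 and 1270 units (parental) to 1055 and 999 (S1a) and 1181 and 1156 (S1b) (-0.28 ± 0.08, adjusted p = 0.016). ORC1 (-0.26 ± 0.16), ORC2 (-0.20 ± 0.13), ORC3 (0.04 ± 0.13), ORC5 (-0.26 ± 0.1, adjusted p = 0.0538, and -0.35 with a p of 0.0401 without parental replicate 2) and ORC6 (0.11 ± 0.083) did not pass. ORC6 passed in S1a (0.34 ± 0.096, adjusted p = 0.0199), though not without parental replicate 2 (0.27, 0.0761) or either S1a array (0.32 and 0.35): it read 1045 and 952 units in parental cells, 1273 and 1246 in S1a and 884 and 958 in S1b.

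The MCM4, GMNN and ORC4 calls were not firm. MCM4 missed the threshold without parental replicate 1 (0.25, adjusted p = 0.0625) or S1a replicate 2 (0.27, 0.0514) and as the mean of its probe sets (0.20, 0.0796). Its other probe sets gave 0.01, 0.02 and 0.47. GMNN missed it without parental replicate 2 (0.20), S1a replicate 1 (0.21) or S1b replicate 1 (0.22). ORC4 missed it without parental replicate 1 (-0.21) or S1a replicate 2 (-0.26), with median centring (-0.11) and on its other probe set (-0.39, adjusted p = 0.115). CDC6 passed without either parental array, at 0.80 without replicate 1 and 0.43 without replicate 2. In S1a alone, where CDC6 had passed, the call ended without S1a replicate 1 (0.28, adjusted p = 0.17), S1a replicate 2 (0.41, 0.0566) or the variance trend. The values of 0.80 and 0.43 come from its other probe set, which then had the higher mean and whose change over all arrays was 0.61 ± 0.11.

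At origin firing, MCM10 and CDC45 rose and the kinase CDC7 did not change measurably. MCM10, which helps activate the helicase, read 811 and 799 units in parental cells, 1200 and 1183 in S1a and 1176 and 1181 in S1b. The isolates were almost level with each other, and the rise was 0.56 ± 0.076 (adjusted p = 0.000255). CDC45, a part of the active helicase, read 668 and 636 units in parental cells, 990 and 1162 in S1a but only 751 and 725 in S1b. The rise of 0.45 ± 0.094 (adjusted p = 0.00331) in the mean of both isolates therefore came mostly from S1a (0.72 ± 0.11, adjusted p = 0.000693), and S1b alone did not pass (0.18 ± 0.11, adjusted p = 0.214). CDC7, which phosphorylates the MCM ring, had 777 and 815, 830 and 797, and 781 and 781 units (0.0021 ± 0.083, adjusted p = 0.985).

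Polymerase and primase subunits moved in opposite directions, with 3 of 9 higher and 2 lower. Of all genes tested, 22.7% were higher and 23.5% lower, so calls in both directions are not particular to these subunits. POLA1, the catalytic subunit of polymerase alpha (chromosome X, 24693918 to 24996986), had the largest fall of any member. Parental cells read 474 and 557 units, S1a 265 and 257, and S1b 237 and 251. The groups were far apart, and the 2.02-fold fall passed (-1.01 ± 0.12, adjusted p = 0.000123). PRIM1, the catalytic primase subunit that works in the same complex, went the other way, from 1242 and 1249 units (parental) to 2046 and 1804 (S1a) and 1857 and 1800 (S1b) (0.59 ± 0.079, adjusted p = 0.000229). The accessory subunits of that complex did not pass. POLA2 read 403 and 446, 367 and 374, and 357 and 344 units (-0.23 ± 0.11, adjusted p = 0.108), and PRIM2 599 and 410, 363 and 406, and 517 and 514 units (-0.15 ± 0.15). The parental arrays of PRIM2 enclosed the S1b arrays, and without parental replicate 2 the gene passed as lower (-0.43, adjusted p = 0.0222).

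Subunits of polymerase delta also had calls in both directions, and for polymerase epsilon only POLE2 passed. POLD3, an accessory subunit of polymerase delta, fell from 928 and 912 units (parental) to 593 and 603 (S1a) and 535 and 560 (S1b) (-0.68 ± 0.086, adjusted p = 0.00016). The catalytic subunit POLD1 rose from 459 and 439 units (parental) to 506 and 614 (S1a) and 601 and 575 (S1b) (0.35 ± 0.11, adjusted p = 0.0246). POLD1 missed the threshold when S1a replicate 2 was left out (0.28, adjusted p = 0.0907), and likewise for parental replicate 2 (0.31, 0.0851) and S1b replicate 1 (0.33, 0.0651). POLE2, an accessory subunit of polymerase epsilon, rose from 1513 and 1469 units (parental) to 2142 and 2157 (S1a) and 2234 and 2198 (S1b) (0.55 ± 0.069, adjusted p = 0.000157). The catalytic subunit POLE (-0.11 ± 0.13) and POLD2 (-0.12 ± 0.082) did not pass.

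**Figure D2:**
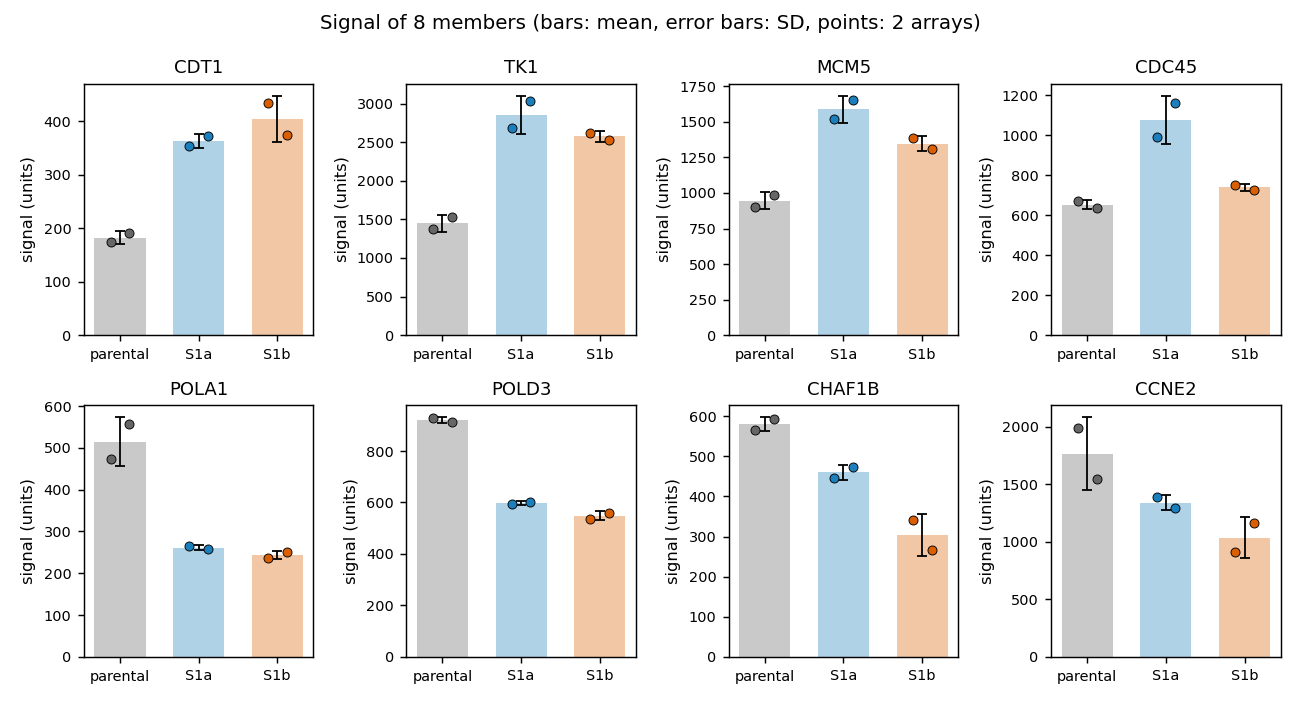
Signal in units (vertical axes, from 0) for 8 members in the parental, S1a and S1b groups; bars are means, error bars SD over 2 arrays and points the arrays. CDT1, TK1 and MCM5 are higher in both isolates, CDC45 mainly in S1a, and POLA1, POLD3, CHAF1B and CCNE2 are lower, with CHAF1B at 580 units in parental cells, 460 in S1a and 304 in S1b.

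Genes of the clamp loader, the single-strand binding complex RPA and lagging strand synthesis rose in 7 of 9 cases, and the other 2 did not pass. Of all genes, 22.7% rose. Among clamp loader subunits, RFC4 rose from 3139 and 2979 units (parental) to 4521 and 4224 (S1a) and 4103 and 3960 (S1b) (0.46 ± 0.071, adjusted p = 0.00058). RFC3 rose by 0.30 ± 0.085 (adjusted p = 0.0161), while RFC1, the large subunit (-0.21 ± 0.12), and RFC5 (0.12 ± 0.081) did not pass. The dimmer probe set of RFC3 gave 0.13 ± 0.11 (limma adjusted p = 0.374). All RPA subunits, which coat unwound DNA, rose: RPA3 by 0.36 ± 0.078, RPA1 by 0.25 ± 0.075 and RPA2 by 0.20 ± 0.072. RPA3 read 2532 and 2394 units in parental cells, 3542 and 3286 in S1a and 2756 and 3083 in S1b, with S1a above S1b and S1b above parental.

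LIG1, the ligase that seals Okazaki fragments, had 227 and 428 units in parental cells, 535 and 672 in S1a and 705 and 534 in S1b. The parental arrays differed almost as much as the groups, which shows in the wide error of the rise (0.95 ± 0.22, adjusted p = 0.00599). FEN1, the nuclease that trims the flaps between those fragments, had 4343 and 5353, 6171 and 6076, and 5807 and 5766 units (0.30 ± 0.089, adjusted p = 0.0185). Its dimmer probe set rose by 0.78 ± 0.076. Without parental replicate 1, the LIG1 rise was 0.50 (adjusted p = 0.0329), and the calls of FEN1 (0.15), RFC3 (0.20) and RPA1 (0.22) ended. Calls also ended for RFC3 without S1a replicate 2 (0.27), for RPA1 without S1a replicate 1 (0.22) or S1b replicate 1 (0.23), for FEN1 without S1a replicate 1 or S1b replicate 1 (0.30 in each) and for RPA2 with any array left out (0.17 to 0.24). RFC1 passed as lower without parental replicate 1 (-0.51), S1a replicate 1 (-0.40) or S1b replicate 1 (-0.41), from its other probe set, whose change was -0.43 ± 0.1.

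Of the 5 nucleotide synthesis genes, TK1, TYMS and DUT rose, RRM2 fell on the probe set used, and RRM1 did not pass. Beside these stand 22.7% of all genes that rose and 23.5% that fell. TK1, the salvage thymidine kinase of proliferating cells, read 1375 and 1529 units in parental cells, 2685 and 3033 in S1a and 2626 and 2526 in S1b. The 1.87-fold rise had the smallest p-value of any member (0.90 ± 0.082, adjusted p = 1.98e-05). TYMS, which makes thymidylate, read 13335 and 15498 units in parental cells, 15954 and 16229 in S1a and 18822 and 17517 in S1b (0.25 ± 0.087, adjusted p = 0.039). DUT, which removes dUTP from the pool, rose by 0.24 ± 0.075 (adjusted p = 0.0231), and its other probe sets gave 0.36 and 0.61.

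Ribonucleotide reductase, the enzyme that makes deoxynucleotides, gave readings that depended on the probe set. For RRM2, the small subunit, the brighter probe set went from 12733 and 14093 units (parental) to 11133 and 11729 (S1a) and 10930 and 11430 (S1b) (-0.25 ± 0.079, adjusted p = 0.028). The dimmer one went from 8237 and 9612 units (parental) to 10324 and 10537 (S1a) and 11168 and 11065 (S1b) (0.28 ± 0.083). The groups did not overlap on either probe set, and the directions were opposite, so no direction is given for this gene. For RRM1, the large subunit, the brighter probe set was level (-0.01 ± 0.077) and the dimmer one was lower in every isolate array, at 2256 and 2338 units in parental cells, 1902 and 1784 in S1a and 1455 and 1681 in S1b (-0.44 ± 0.084). The RRM2 call also ended without parental replicate 2 (-0.17) or any isolate array (-0.23 to -0.26). The TYMS call ended without parental replicate 1 (0.14) or any isolate array (0.22 to 0.28), and the mean with its other probe set, which lay below 44 units, was 0.01. With quantile normalization TYMS rose by 0.46. DUT missed the threshold without parental replicate 2 (0.20) or 3 of the isolate arrays (0.22 to 0.27).

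**Figure D3:**
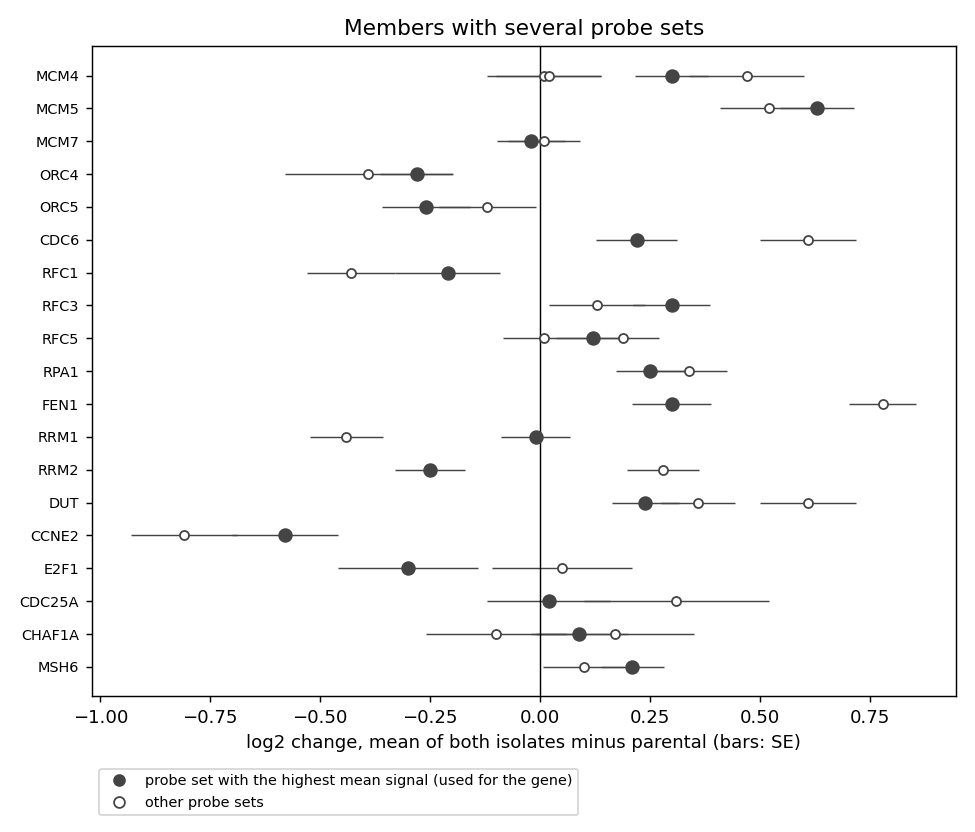
Log2 change of the mean of both isolates against parental (horizontal axis, bars SE) for every probe set above 44 units in the 19 members with more than 1; filled points mark the probe set used for the gene. All probe sets share a sign in 15 members, and the signs differ for RRM2, MCM7, E2F1 and CHAF1A.

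Regulators of the G1/S step were level or lower in the isolates, with 2 of 5 lower in the mean of both, beside 23.5% of all genes. CCNE2, one of the E type cyclins that drive entry into S phase, went from 1987 and 1544 units (parental) to 1387 and 1292 (S1a) and 910 and 1161 (S1b). S1b was the lowest group, and the fall was 0.58 on the log2 scale (-0.58 ± 0.12, adjusted p = 0.00367); its other probe set gave -0.81 ± 0.12. DTL, the substrate receptor that targets CDT1 for degradation, went from 2461 and 2361 units (parental) to 2022 and 2181 (S1a) and 1794 and 1722 (S1b) (-0.33 ± 0.073, adjusted p = 0.00478). With median centring DTL did not pass (-0.15, adjusted p = 0.162). CCNE1 (-0.24 ± 0.13), the phosphatase CDC25A (0.02 ± 0.14) and E2F1 (-0.30 ± 0.16) did not pass. E2F1, an activating E2F factor, read 423 and 465 units in parental cells, 287 and 326 in S1a and 513 and 347 in S1b. It passed in S1a (-0.53 ± 0.18, adjusted p = 0.0403), but not without parental replicate 2 (-0.46) or S1a replicate 1 (-0.44) or 2 (-0.62), and its dimmer probe set was level (0.05 ± 0.16). Without S1b replicate 1, E2F1 also passed in the mean of both isolates (-0.44, adjusted p = 0.0304).

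Among chromatin and repair genes, the subunits of chromatin assembly factor 1, which places histones on new DNA, differed. CHAF1B fell from 567 and 592 units (parental) to 446 and 473 (S1a) and 341 and 266 (S1b) (-0.63 ± 0.12, adjusted p = 0.00215), whereas CHAF1A was level (0.09 ± 0.11), with probe sets of differing sign. MSH6, a mismatch recognition protein, rose slightly, from 2429 and 2587 units (parental) to 2789 and 2767 (S1a) and 3063 and 3021 (S1b) (0.21 ± 0.069, adjusted p = 0.029). Its call ended without any one array other than parental replicate 2 (0.17 to 0.22). With quantile normalization (0.14) or cyclic loess (0.17) MSH6 did not pass either. The other MSH6 probe set above 44 units gave 0.10 ± 0.092 (limma adjusted p = 0.406).

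Between the isolates, members were more often lower in S1b than in S1a, by small amounts. Only 2 of 49 members passed (4.08%, beside 1.89% of all genes). The fitted change was above 0 for 17 members (34.7%, beside 51.4% of all genes) and below 0 for 32, with a median of -0.06, beside 0.01 for all genes. In 24 members (49%) both S1b arrays lay below both S1a arrays, and in 7 (14.3%) above, beside 23.9% and 25.7% of all genes. By limma, 2 members were lower, CDC45 (-0.54 ± 0.11, adjusted p = 0.0404) and ORC6 (-0.45 ± 0.096, adjusted p = 0.0486), and 0 higher; all genes gave 1.42% lower and 0.462% higher. At an unadjusted p under 0.05, 11 members were lower and 2 higher (22.4% and 4.08%, beside 8.39% and 6.52% of all genes). Neither call held with any one S1a or S1b array left out (CDC45 -0.42 to -0.65, ORC6 -0.39 to -0.51). CHAF1B (-0.60 ± 0.14, adjusted p = 0.0718) passed without parental replicate 1 or 2 (adjusted p = 0.0361 and 0.0374), which leaves its value unchanged. The summed mitosis markers given above moved the opposite way, being higher in S1b; their part in this was not tested.

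**Figure D4:**
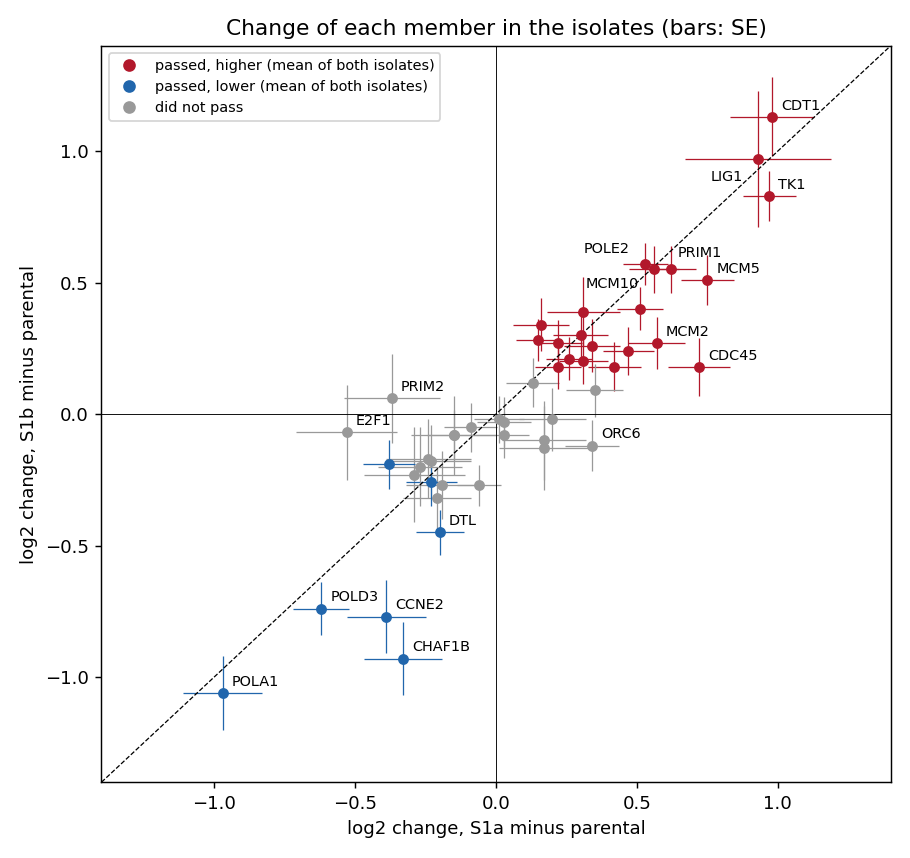
Log2 change against parental in S1a (horizontal axis) and S1b (vertical axis) for the 49 tested members, with SE bars; both axes share the parental arrays, and the dashed line marks equal change. CDC45 (0.72 and 0.18) and ORC6 (0.34 and -0.12) lie below the line, and CHAF1B (-0.33 and -0.93) lies furthest below it.

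Other genes of the same processes were taken from further lists. Of 22 other replication fork genes tested, 6 rose and 5 fell (median log2 change -0.06). These counts were near the shares of all genes tested, of which 22.7% rose and 23.5% fell. The GINS subunits, which complete the active helicase with CDC45 and MCM, went apart: GINS2 rose from 1068 ± 128 units (SD, n = 2) in parental cells to 2050 ± 58.8 (S1a) and 1651 ± 78.5 (S1b) (0.79 ± 0.088, adjusted p = 7.13e-05), and GINS1 fell from 1813 ± 3.48 to 1456 ± 69.8 and 1029 ± 34.1 (-0.57 ± 0.075, adjusted p = 0.000217). The clamp loader subunit RFC2 fell (-0.60 ± 0.081), unlike RFC3 and RFC4, and the fork protection gene TIPIN rose (0.63 ± 0.084). Of 25 other nucleotide synthesis genes, 13 rose and 4 fell (median 0.24), including the pyrimidine genes DCTD (0.93 ± 0.09) and CAD (0.86 ± 0.12) and the purine genes ATIC (0.65 ± 0.081) and GMPS (0.54 ± 0.075).

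Of 26 other G1/S regulators, 4 rose and 5 fell. Over all genes tested, 22.7% rose and 23.5% fell. The counts of this list and of the chromatin list below were not above those shares. E2F8, a repressing E2F factor, fell from 1538 ± 91.2 units in parental cells to 658 ± 21.8 (S1a) and 754 ± 21.8 (S1b) (-1.12 ± 0.083, adjusted p = 5.79e-06). The D type cyclins diverged, with CCND3 lower (-0.84 ± 0.098) and CCND1 higher (0.46 ± 0.085), and the activator E2F3 was lower (-0.32 ± 0.081). Of 18 other chromatin, histone supply and repair genes, 3 rose and 3 fell, among them the histone mRNA binding gene SLBP (-0.44 ± 0.08), DNMT1, the maintenance methyltransferase (0.32 ± 0.076), the deubiquitinase USP1 (-0.29 ± 0.071) and the histone chaperone ASF1A (0.41 ± 0.1). Of the 7 mitosis markers, PLK1 (0.87 ± 0.094), CDC20 (0.48 ± 0.072), AURKA (0.45 ± 0.085) and CCNB1 (0.40 ± 0.072) rose and CENPF (-0.45 ± 0.083) and BUB1 (-0.31 ± 0.072) fell.

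**Figure D5:**
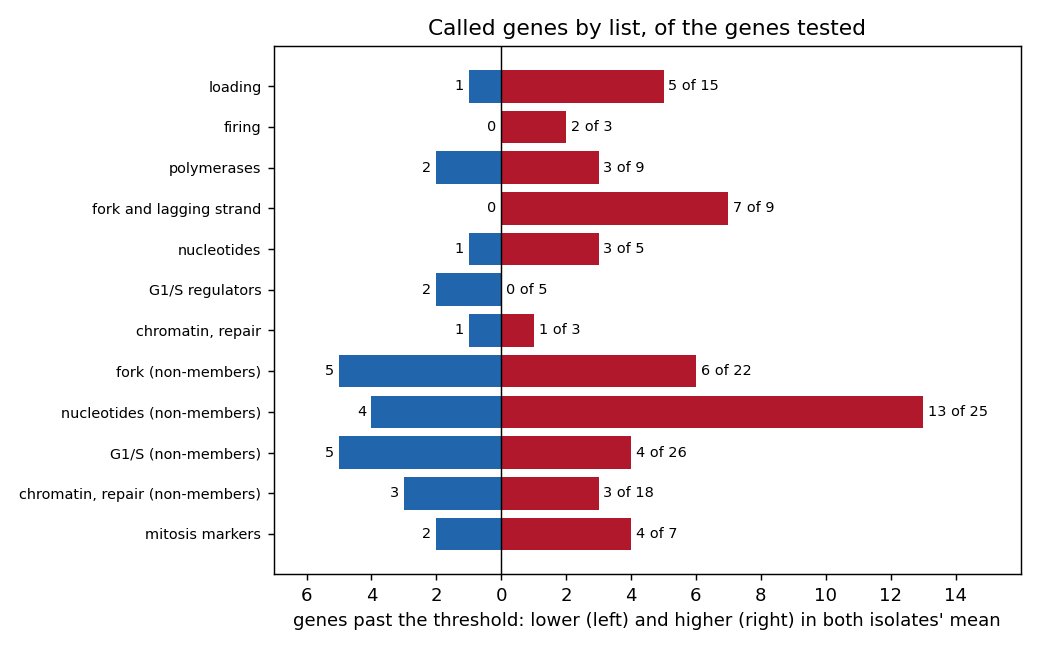
Number of genes that passed in both isolates averaged, relative to parental cells, lower to the left and higher to the right, for each list, with the number tested written beside the bar. Over all genes tested, 22.7% rose and 23.5% fell. The fork and lagging strand members (7 of 9) and the non-member nucleotide synthesis genes (13 of 25) have the longest bars to the right, by number of genes and not by share, and G1/S regulators rose in 0 of 5 members and 4 of 26 other genes.

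As a description of the average pattern, the log2 signals of the 49 tested members were standardised gene by gene and averaged. The mean was -0.24 and -0.12 in parental cells, 0.29 and 0.24 in S1a, and 0.10 and -0.26 in S1b, so the S1b arrays did not stand together. S1b replicate 2 was the lowest of the 6 arrays, below both parental arrays. Its median log2 offset from the parental mean was 0.01, with 25 members above that mean, beside 0.06 and 30 in S1b replicate 1. Among tested genes outside the set, SRP14 (r = 0.988), UROS (0.981), ZBTB48 (0.980), FUBP1 (0.976) and NES (0.972) had profiles most like the members' mean. They were picked as the highest of all such genes over only 6 arrays, so high values of r carry little weight.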

How the data were processed

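The deposited values are linear intensities, with a signal for each probe set on each array. The authors made them with MAS5, per the submitters' processing notes, whose version is not given in these sources. No scanner file or detection call was used. Of 22277 probe sets, 62 controls were left out, and 19064 had 1 gene symbol in the platform annotation, updated through RefSeq gene identifiers (19052 matched). A gene was read from its probe set with the highest mean. Values were taken as log2(signal + 3.942), the pseudocount being the 10th percentile of all signals, and fold changes are on that scale. Probe sets with a mean below 44 units (the 40th percentile) were left out. In limma 3.58.1 (R 4.3.3), the 6 arrays were fitted with a mean for each of 3 groups and a variance trend. The contrasts were each isolate, and the mean of both, against parental, and S1b against S1a. Values after ± are standard errors unless given as SD. Benjamini-Hochberg adjustment ran over all 7791 genes in each contrast, with a threshold of 0.05. Members and gene lists were chosen with earlier results of these data known, so no p-value is given for a list. All 50 members are named; of each other list, up to 4 genes past the threshold with the smallest p-values are named, and of the mitosis markers all that passed. The 5 genes of most like pattern are the tested genes outside the members with the highest Pearson correlation. The fit was also run on simulated data with known changes. Far fewer genes changed there than were called here, so the error rates of these results were not measured. Same-numbered arrays did not deviate together (correlations of -0.0046 to -0.0674), so no pairing was used. The number of arrays limits the precision.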

Additional observations from a re-analysis of the deposited data

Results flagged for a closer look

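CDC45 and ORC6 had lower signals in S1b than in S1a, but neither call was firm. The difference between their changes against parental, which is the contrast of S1b against S1a, passed with limma for CDC45 (-0.54 on the log2 scale, adjusted p = 0.0404) and for ORC6 (-0.45, adjusted p = 0.0486). In each gene both S1b arrays lay below both S1a arrays. Both calls ended with any S1a or S1b array left out (adjusted p = 0.0976 to 0.331 for CDC45 and 0.147 to 0.309 for ORC6), with no filter, with quantile normalization, without the variance trend and with the replicate block (0.0828 and 0.1).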

How the results depend on the processing

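Of 28 members called in the mean of both isolates, 10 kept their call under all alternatives (MCM5, POLA1, POLD3, POLE2, PRIM1, RFC4, RPA3, TK1, CCNE2 and CHAF1B), and 4 (MCM2, MCM10, CDT1 and CDC45) under all but the one without shared-probe suffixes, which left them untested and tested 34 members. Where the cause of a change is not given by fewer arrays or genes, the cause was not tested. Without the variance trend, 11 members rose in the mean of both, 11 in S1a and 7 in S1b, and 5 fell in S1b. With median centring, 22 rose in S1b, and 4 fell in the mean of both, 2 in S1a and 5 in S1b. For S1b against S1a, the mean of probe sets gave 1 higher, and lower members numbered 1 with a pseudocount of 1, cyclic loess or median centring and 0 with no filter, quantile normalization, the mean of probe sets, no shared-probe suffixes, no variance trend or the replicate block. RRM2 reversed with the mean of its probe sets, to 0.01 in the mean of both isolates and 0.03 in S1b. The replicate block gave no lower member in S1b against S1a and ended the calls of RPA2, TYMS and MSH6 (adjusted p = 0.0703, 0.0744 and 0.0525) in the mean of both, E2F1 in S1a (0.0574), and ORC5 and RRM2 in S1b (0.0712 and 0.067). With each array left out, members higher and lower ran from 13 to 18 and 5 to 8 in the mean of both, 10 to 18 and 2 to 6 in S1a, 7 to 14 and 5 to 8 in S1b, and 0 to 0 and 0 to 3 in S1b against S1a. A lone array was then assumed to vary like the others.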

Other observations

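The chromosomal neighbours of the 11 members that passed with a log2 change of at least 0.5 were also read, up to 5 tested genes on each side in RefSeq order. These members were chosen after their values were seen, and no test was made. Around CDT1 on chromosome 16, 6 of 10 neighbours rose in the mean of both isolates and 0 fell (median log2 change 0.59 over 1.75 Mb), among them MVD (2.05), APRT (1.09) and TRAPPC2L (0.92). Around POLA1 on the X chromosome, 7 of 10 fell and 1 rose (median -0.68 over 14.4 Mb), including EIF2S3 (-1.51), while XK was higher (0.63). Around CCNE2, 7 of 10 fell (median -0.44), including PDP1 (-1.18) and RAD54B (-0.97). MCM5 went against its surroundings, with 6 of 10 neighbours lower (median -0.51 over 3.75 Mb). Around MCM10, 5 of 10 rose and 2 fell (median 0.20). Around POLD3, 0 rose and 4 fell (median -0.32), and around CHAF1B 1 rose and 3 fell (-0.28). The neighbours of POLE2 (-0.01), PRIM1 (0.09), LIG1 (-0.09) and TK1 (0.07) had medians near 0, although 3 of 10 rose and 0 fell around TK1. Over all genes tested, 22.7% rose and 23.5% fell in this comparison.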
